A study of Mus musculus with 12 samples.

Results

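The BCL2 family and the tumour suppressor gene Trp53 were followed in primordial germ cells (PGCs) of mouse embryos, in which Ezh2 had been conditionally knocked out (CKO) or not (Ctrl). The members were chosen by name, as 10 of the 37991 gene identifiers in the table of counts. They are the effectors Bax and Bak1, the pro-survival genes Bcl2, Bcl2l1 and Mcl1, the BH3-only genes Pmaip1, Bbc3, Bcl2l11 and Bid, and Trp53. All 10 were in the table, and 9 passed the filter on low counts, the exception being Bak1.

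RNA was sequenced from PGCs sorted on embryonic day E13.5, with 1 C57BL/6 embryo per library. Of the 12 embryos, 5 were female (2 CKO and 3 Ctrl) and 7 were male (3 CKO and 4 Ctrl). The labels give neither the Cre driver, nor the control genotype, nor the litters, nor the exons deleted, so the groups are known only as Ezh2 CKO and Ctrl. Sex and knockout status were the only differences between the groups that the labels state.

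In the mitochondrial pathway of apoptosis, the effectors BAX and BAK permeabilise the outer mitochondrial membrane, and pro-survival proteins such as BCL2, BCL-XL and MCL1 hold them in check. BH3-only proteins bind the pro-survival proteins or the effectors and so tip the balance towards death, and p53 is a transcription factor that can induce several of these genes after damage. In mouse embryos Bax is needed for the death of PGCs that stray from their route, and Bcl2l1 for the survival of PGCs. EZH2 is the catalytic subunit of Polycomb repressive complex 2, which methylates histone H3 at lysine 27.

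The upstream sequences of 3 members around which the results turn are shown, namely Bax, Trp53 and Mcl1. Bax and Trp53 were both lower in females than in males. Mcl1 was called lower in CKO embryos in females and averaged over the sexes, but not in males alone. Each is the 250 bases before the RefSeq transcription start on GRCm38.p6, read 5′ to 3′ on the strand of the gene. The Bax sequence lies at chr7:45466899-45467148 on the minus strand, the Trp53 sequence at chr11:69580109-69580358 on the plus strand and the Mcl1 sequence at chr3:95658471-95658720 on the plus strand. Capitals mark each match to the p53 half-site, the palindromic decamer that p53 binds in pairs, which reads alike on both strands.

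Bax: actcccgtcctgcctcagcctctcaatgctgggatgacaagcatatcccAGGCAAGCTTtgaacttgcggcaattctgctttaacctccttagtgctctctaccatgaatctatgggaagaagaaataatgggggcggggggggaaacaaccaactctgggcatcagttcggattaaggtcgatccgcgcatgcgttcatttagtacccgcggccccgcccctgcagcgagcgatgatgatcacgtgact

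Trp53: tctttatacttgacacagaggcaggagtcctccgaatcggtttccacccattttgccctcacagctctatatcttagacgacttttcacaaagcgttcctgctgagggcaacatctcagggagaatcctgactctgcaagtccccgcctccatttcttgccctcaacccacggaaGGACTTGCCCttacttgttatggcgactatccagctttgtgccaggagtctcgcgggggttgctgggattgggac

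Mcl1: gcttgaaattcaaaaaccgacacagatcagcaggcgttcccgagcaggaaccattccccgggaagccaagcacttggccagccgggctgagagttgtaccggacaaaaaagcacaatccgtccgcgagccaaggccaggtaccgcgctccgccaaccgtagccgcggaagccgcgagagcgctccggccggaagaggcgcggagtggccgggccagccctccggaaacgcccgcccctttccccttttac

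Bax and Trp53 each held 1 match, and no start of the other 7 members searched held one. Pmaip1 was not searched. Across 32851 promoters of this length, 7.13% held at least 1 match, so a match only describes the letters of this window. Mcl1 had 26 CpG dinucleotides in its window and Bax 14, against a median of 6 over all promoters.

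The libraries held 26180685 to 35299206 counts each. Levels are given as CPM, counts scaled to library size, and 1 CPM stood for 24.2 to 34.2 counts. The germ cell marker genes, which include Ddx4 and Dazl, had sums from 6026 to 6769 CPM. None of these 10 markers was at 0. Dazl had the highest level in every group, so the sums hide shifts of other markers. In females Pou5f1, Dppa3, Kit, Dnd1 and Sall4 were lower in every CKO than in any Ctrl library, and Ddx4 and Mael were higher. Dazl, Nanos3 and Tfap2c overlapped. Pou5f1 had 128 to 156 CPM in CKO against 196 to 220 in Ctrl embryos, and Mael 464 to 600 against 217 to 239. In this comparison the groups did not overlap for 44.6% of all genes tested. Ezh2 RNA, which checks the labels, averaged 95.6 ± 15.7 CPM in female CKO embryos against 154 ± 10.9 in female Ctrl embryos, and 84.4 ± 1.79 in male CKO against 122 ± 19.9 in male Ctrl embryos (SD, n = 2, 3, 3 and 4). Ezh2 was lower in female CKO than in female Ctrl embryos (log2 fold change -0.68, edgeR adjusted p = 0.02). In males the value was -0.53 (edgeR adjusted p = 0.0527), with no overlap of the groups. Whole-gene counts include exons outside a deletion, so remaining Ezh2 counts do not measure how complete the deletion was.

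Set against each other per kilobase of exon, the members spanned a wide range of levels. Bax was the most abundant in every group, at 58.9 ± 27.3 CPM per kb in female CKO, 101 ± 5.22 in female Ctrl, 175 ± 0.949 in male CKO and 177 ± 15.6 in male Ctrl libraries. In females Mcl1 and Trp53 followed Bax, and these 2 genes lay within their spread of each other in both female groups. In female CKO embryos Bax and Mcl1 overlapped as well, at the wide spread of Bax. In male CKO embryos Pmaip1 came second at 117 ± 24.2 CPM per kb, ahead of Trp53 at 73.9 ± 1.46 and Mcl1 at 52.4 ± 1.06. In male Ctrl embryos Trp53 (76.2 ± 15.1), Pmaip1 (69.96 ± 28.9) and Mcl1 (57.8 ± 3.61) overlapped, each within 1 SD of its neighbour.

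Below these genes the order of levels per kb was the same in all groups, with Bid first, then Bcl2l1, Bbc3, Bcl2l11 and, last, Bcl2 and Bak1. Bid and Bcl2l1 overlapped in male Ctrl embryos, at 19.7 ± 4.66 and 13.7 ± 2.84 CPM per kb. In females Pmaip1 stood between Bcl2l11 and Bcl2, at 0.876 ± 0.148 CPM per kb in CKO and 0.779 ± 0.251 in Ctrl embryos. Bcl2 was at 0.254 ± 0.0478 CPM per kb in female CKO and 0.151 ± 0.0395 in female Ctrl embryos, and at 0.138 ± 0.0302 in male CKO and 0.0831 ± 0.0202 in male Ctrl embryos. Among the pro-survival genes, RNA of Mcl1 and Bcl2l1 was therefore far more abundant per kb than RNA of Bcl2 in all 4 groups.

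**Figure D1:**
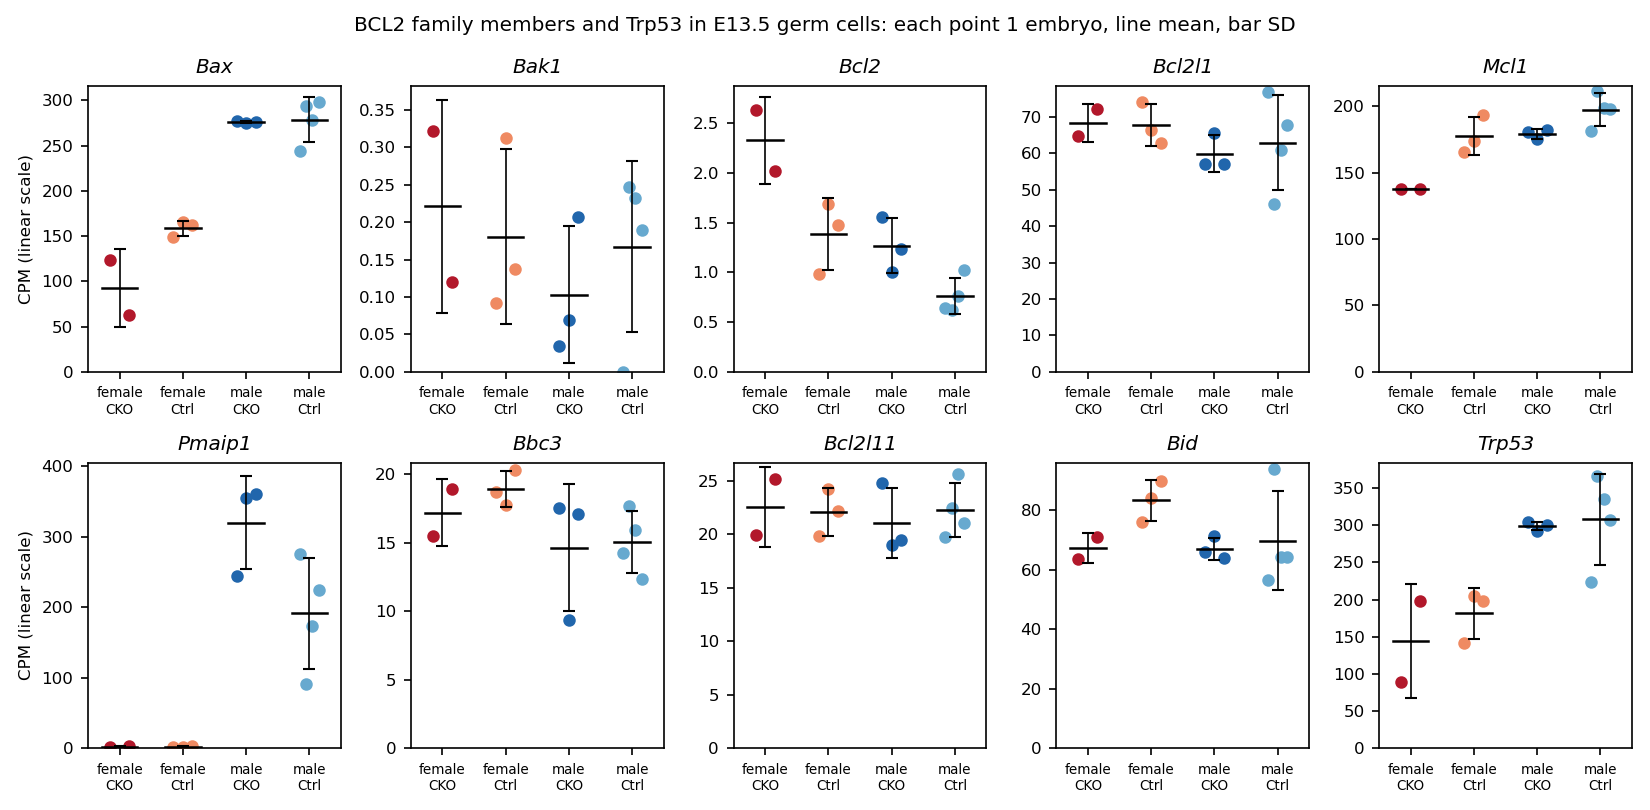
Level of each of the 10 members in CPM on a linear axis, with 1 point per embryo, a line at the group mean and a bar of 1 SD. The female groups are on the left and the male groups on the right, each with CKO before Ctrl. Pmaip1 lies between 1.66 and 2.92 CPM in all 5 female libraries and between 90.4 and 361 CPM in the 7 male libraries.

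Female CKO embryos were compared with female Ctrl embryos to ask what loss of Ezh2 did to these genes in female PGCs. Bax and Mcl1 were called lower in female CKO embryos, and no member rose past the threshold. Neither call was stable, since of 14 alternative settings 6 kept that of Bax and 3 that of Mcl1. Differences were tested with edgeR's quasi-likelihood test, and a gene was called at a Benjamini-Hochberg adjusted p under 0.05 over all 16708 genes tested. Of the 9 members tested 2 were called, both lower, while 7.17% of all genes tested were called in this comparison and 4.16% were called lower. The median log2 fold change of the 9 members was -0.14, against -0.0036 over all genes tested. In bulk PGC libraries, fewer cells of a type and less RNA per cell cannot be told apart.

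Bax (ENSMUSG00000003873, chromosome 7), which forms pores in the outer mitochondrial membrane, had 123 and 62.4 CPM in the 2 female CKO embryos, against 149, 165 and 162 CPM in the 3 female Ctrl embryos. Both CKO libraries lay under all Ctrl libraries, and they differed from each other about as widely as they did from the Ctrl group. The log2 fold change was -0.77 (SE 0.20), with a 95% interval of -1.21 to -0.34 (edgeR adjusted p = 0.0371). Without female CKO replicate 2 the value was -0.35 (edgeR adjusted p = 0.192), so the call was lost. Without female CKO replicate 1 it was -1.34 and called (adjusted p = 0.00195). The call was also lost without any 1 of the 3 female Ctrl embryos, with values of -0.81, -0.73 and -0.74 and adjusted p of 0.0649, 0.0958 and 0.106. Bax was called in 6 of the 14 alternatives in all.

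Mcl1 (ENSMUSG00000038612, chromosome 3), a short-lived pro-survival protein's gene, had 137 and 138 CPM in female CKO embryos, against 165, 174 and 194 CPM in female Ctrl embryos. The CKO libraries were nearly equal and lay below every Ctrl library. The log2 fold change was -0.37 (SE 0.10), with a 95% interval of -0.58 to -0.16 (edgeR adjusted p = 0.0408). This call was lost without female CKO replicate 1 or 2 (adjusted p = 0.168 and 0.179) and without female Ctrl replicate 2 or 3 (0.0932 and 0.157). It was also lost under either other scaling, either other filter, a fit to the compared groups alone and either replicate block (adjusted p = 0.0515 to 0.105). Mcl1 was thus called in 3 of the 14 alternatives, with fold changes between -0.41 and -0.25.

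Bcl2, the founding pro-survival gene, had 2.63 and 2.02 CPM in female CKO embryos, from 90 and 67 counts, against 0.98, 1.69 and 1.48 CPM in female Ctrl embryos, from 32, 54 and 43 counts. The groups did not overlap, as held for 44.6% of all genes tested in this comparison of 2 with 3 embryos. The log2 fold change was 0.75 (SE 0.38, 95% interval -0.07 to 1.57, edgeR adjusted p = 0.26), so the difference did not pass the test at this depth. Bcl2l1, which encodes the pro-survival BCL-XL, had 64.7 and 72.1 CPM in CKO against 74.2, 66.3 and 63.0 CPM in Ctrl embryos. Its groups overlapped, and the 95% interval of the log2 fold change ran from -0.36 to 0.39.

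Among the BH3-only genes none was called. Bid, whose product links death receptors to the mitochondrial pathway once it is cleaved, had 63.6 and 70.9 CPM in female CKO against 76.2, 84.2 and 89.7 CPM in female Ctrl embryos. The groups did not overlap, yet the change was not called (log2 fold change -0.31, 95% interval -0.69 to 0.07, edgeR adjusted p = 0.314). Pmaip1, the gene of NOXA, which binds MCL1, was near 2 CPM in both groups, with 2.11 and 2.68 CPM in CKO and 1.81, 1.66 and 2.92 CPM in Ctrl embryos. Bbc3, the gene of PUMA, averaged 17.2 ± 2.43 CPM in CKO and 18.9 ± 1.30 CPM in Ctrl embryos. Bcl2l11, the gene of BIM, averaged 22.6 ± 3.73 CPM in CKO and 22.1 ± 2.20 CPM in Ctrl embryos (SD, n = 2 and 3). For these 3 genes the 95% intervals of the log2 fold change ran from -0.87 to 1.22, from -0.67 to 0.40 and from -0.35 to 0.41.

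Trp53 itself (ENSMUSG00000059552, chromosome 11) had 89.7 and 198 CPM in female CKO embryos, against 141, 204 and 199 CPM in female Ctrl embryos. CKO replicate 1 was the lowest of all 12 libraries and CKO replicate 2 lay within the Ctrl range. The log2 fold change was -0.33 (SE 0.27, edgeR adjusted p = 0.505). It was -1.01 without CKO replicate 2 and 0.13 without CKO replicate 1, and neither value was called. The 2 CKO embryos stood in opposite order for the 2 genes, since replicate 1 had the higher Bax and the lower Trp53. The count ratio of Bax to Trp53 was 0.46 on the log2 scale in CKO replicate 1 and -1.67 in replicate 2, against 0.08, -0.31 and -0.30 in the Ctrl embryos.

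Markers of somatic cells were low but not equal between these groups. The 8 interstitial and steroidogenic markers summed to 12.7 and 20.4 CPM in female CKO embryos, against 6.76 to 9.15 CPM in female Ctrl embryos. The highest sum was in CKO replicate 2, the embryo with the lowest Bax, and 2 of the 8 markers were at 0 in each CKO library. The 7 endothelial markers summed to 14.8 and 16.6 CPM in CKO against 8.92 to 11.4 CPM in Ctrl embryos. Red cell markers summed to 16.5 CPM in CKO replicate 1 and 1.14 CPM in replicate 2, against at most 2.13 CPM in Ctrl embryos. The 12 immediate early genes of cell handling summed to 141 CPM in both CKO embryos, against 146 to 166 CPM in Ctrl embryos. These sums hide shifts in opposite directions. Ier2, Dusp1 and Fosb were lower in each CKO than in any Ctrl library, Jun and Junb were higher, and the others overlapped. Dusp1 had 33.1 to 40.5 CPM in CKO against 44.7 to 60.5 in Ctrl embryos, and Jun 7.04 to 8.84 against 2.33 to 5.31. Fosb was at most 0.103 CPM in females. The part of somatic RNA and of cell handling in the Bax and Mcl1 results was not tested.

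In males, the same question was asked of 3 CKO and 4 Ctrl embryos, and none of the 9 members tested was called, where 1.7% of all genes tested were. At an unadjusted p under 0.05, edgeR had 2 members, Bcl2 and Pmaip1, among 2789 genes, and limma-voom called Pmaip1 alone and DESeq2 called none. Bax was nearly constant, with 277, 274 and 276 CPM in male CKO embryos, against 244, 293, 278 and 299 CPM in male Ctrl embryos. The CKO values lay inside the Ctrl range, and the 95% interval of the log2 fold change ran from -0.37 to 0.34. Mcl1 had 180.4, 175 and 182 CPM in CKO against 181, 211, 199 and 198 CPM in Ctrl embryos. This difference was not called (log2 fold change -0.14, SE 0.08, edgeR adjusted p = 0.416).

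Pmaip1 had 244, 355 and 361 CPM in male CKO embryos, against 276, 90.4, 174 and 224 CPM in male Ctrl embryos. Of the CKO embryos 2 lay above every Ctrl embryo, and the third lay within the wide Ctrl range. The log2 fold change was 0.74 (SE 0.29, 95% interval 0.10 to 1.38), which edgeR did not call (adjusted p = 0.228). With limma-voom and sample quality weights it was 0.88 and called (adjusted p = 0.0282), while over the 16 alternatives it lay between 0.51 and 0.98 with adjusted p from 0.0282 to 0.5.

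Bcl2 had 1.56, 1.01 and 1.24 CPM in male CKO embryos, against 0.64, 0.62, 0.76 and 1.02 CPM in male Ctrl embryos. The groups met only at CKO replicate 2 and Ctrl replicate 4. The log2 fold change was 0.73 (SE 0.34, 95% interval 0.01 to 1.46, edgeR adjusted p = 0.293). Behind these values stood 29 to 46 counts per CKO library and 15 to 27 counts per Ctrl library. Trp53 had 305, 293 and 299.8 CPM in CKO against 224, 367, 335 and 307 CPM in Ctrl embryos, and the CKO values all lay within the Ctrl range. The remaining members Bcl2l1, Bbc3, Bcl2l11 and Bid had log2 fold changes from -0.08 to -0.04, and their groups overlapped.

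**Figure D2:**
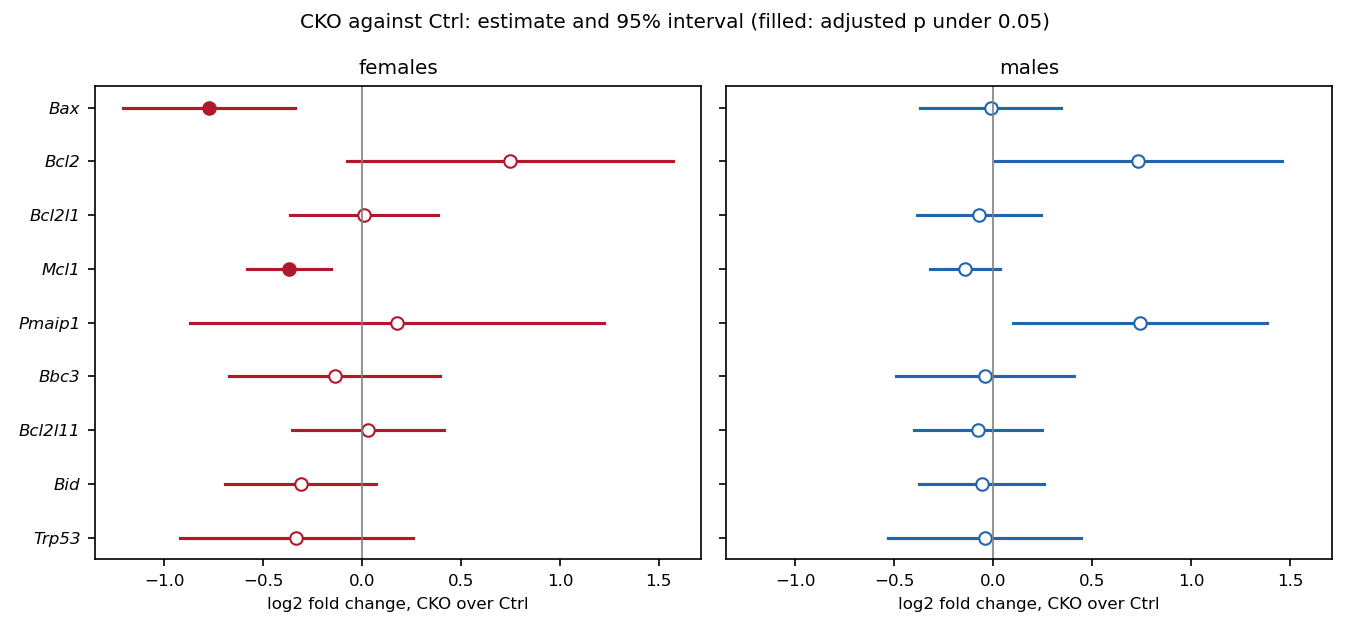
Log2 fold change of CKO over Ctrl for the 9 tested members, females on the left and males on the right, with bars of the 95% interval and filled points where the edgeR adjusted p was under 0.05. In females Bax at -0.77 and Mcl1 at -0.37 are filled, in males no point is, and Bcl2 lies near 0.75 and 0.73.

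Bak1, the partner effector of Bax, had very few reads. It had 11 and 4 counts in female CKO embryos and 3, 10 and 4 counts in female Ctrl embryos. Males had 1, 2 and 6 counts in CKO embryos and 0, 6, 7 and 5 counts in Ctrl embryos. The largest level was 0.322 CPM, in female CKO replicate 1, and the groups overlapped in both sexes. Fitted without a filter, Bak1 was called in none of the 6 contrasts (edgeR adjusted p between 0.574 and 1). Of its exon bases 25.5% are shared with Ggnbp1 on the opposite strand, which itself had 36 to 89 counts per library, so with reads that carry no strand some of these few counts could belong to that gene.

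Averaged over the sexes, the CKO effect called 1 member of 9, where 14.7% of all genes tested were called and 7.87% were called lower. Mcl1 was lower in CKO embryos by this contrast, at -0.25 on the log2 scale (SE 0.06, edgeR adjusted p = 0.0189), and it was called in 15 of 20 alternatives. The call was lost without female CKO replicate 1 (adjusted p = 0.0649), female CKO replicate 2 (0.0662) or female Ctrl replicate 3 (0.0596), with library size only (0.0562) and without a filter (0.0599). Bax was at -0.39 (SE 0.13, edgeR adjusted p = 0.0582) and was called in 4 of 20 alternatives, among them DESeq2 (0.0387) and limma-voom (0.0105). Leaving out female CKO replicate 1 took Bax to -0.68 (0.00145), and leaving out male Ctrl replicate 1 took it to -0.42 (0.044). Bcl2 was at 0.74 (SE 0.25, edgeR adjusted p = 0.068) and passed with DESeq2 (0.042) and with scaling by library size only (0.0487). These contrasts reuse the embryos of the comparisons within each sex, so they are no separate evidence.

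The difference between the female and the male effect was tested itself, since Bax was called in 1 sex and not in the other. edgeR called none of the members and none of the 16708 genes, while 1401 genes and 1 member, Bax, had an unadjusted p under 0.05. DESeq2 called 61 genes and limma-voom 0, and neither called a member. The Bax effect was lower in females than in males by a log2 difference of -0.76 (SE 0.26, 95% interval -1.32 to -0.20, unadjusted p = 0.0111, edgeR adjusted p = 0.496). Without female CKO replicate 1 the difference was -1.33 and passed (adjusted p = 0.0214). For Mcl1 the difference was -0.23 (SE 0.13, adjusted p = 0.652) and for Bcl2 0.02 (SE 0.57, adjusted p = 0.999), so an unequal effect in the 2 sexes was not shown for any member.

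Ratios of counts within a library do not depend on library scaling, and that of Bax to Bcl2 is often used as an index of effector against pro-survival RNA. On the log2 scale it was 5.55 and 4.95 in female CKO embryos, against 7.25, 6.61 and 6.78 in female Ctrl embryos. In males it was 7.48, 8.09 and 7.80 in CKO embryos, against 8.57, 8.89, 8.51 and 8.19 in Ctrl embryos. In each sex every CKO library thus lay under every Ctrl library, and in each knockout status every female library lay under every male library. In CPM, CKO and Ctrl embryos did not overlap for 44.6% of all genes tested in females and 15% in males. Females and males did not overlap for 43.4% among Ctrl and 64.2% among CKO embryos. Bcl2 was called by edgeR in none of these comparisons, and Bax was not called between male CKO and male Ctrl embryos. The ratio is described without a test, and its lower part is the small number of Bcl2 counts given above.

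The ratio of Bax to Mcl1, the more abundant pro-survival gene, was -0.16 and -1.14 on the log2 scale in female CKO embryos, against -0.14, -0.07 and -0.26 in female Ctrl embryos, so CKO replicate 1 lay within the Ctrl range. In males it lay between 0.60 and 0.65 in CKO embryos and between 0.43 and 0.59 in Ctrl embryos. CKO was higher without overlap, but only just, with the lowest CKO embryo at 0.602 and the highest Ctrl embryo at 0.592. In CPM, the male groups did not overlap for 15% of all genes tested, and neither Bax nor Mcl1 was called in males. The ratio of Bax to Bcl2l1 was 0.93 and -0.21 in female CKO against 1.01 to 1.36 in female Ctrl embryos, and 2.06 to 2.28 in male CKO against 1.66 to 2.67 in male Ctrl embryos.

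**Figure D3:**
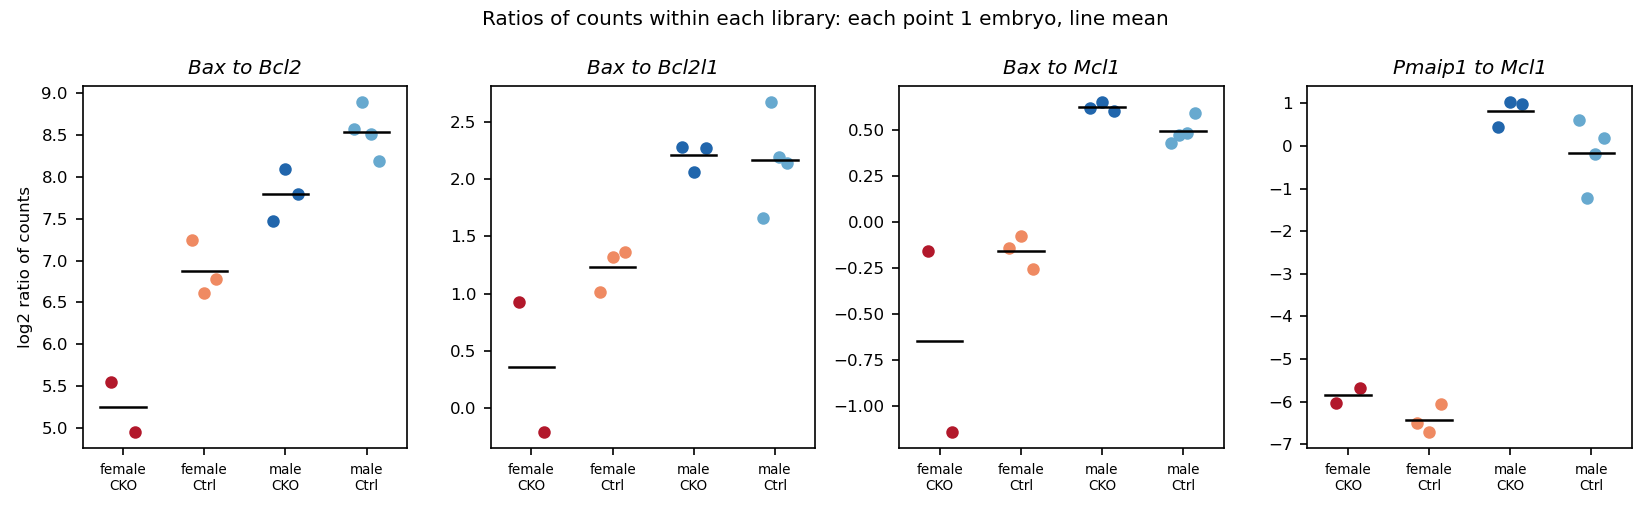
Log2 ratio of counts within each library for Bax to Bcl2, Bax to Bcl2l1, Bax to Mcl1 and Pmaip1 to Mcl1, with 1 point per embryo and a line at the group mean. The Bax to Bcl2 ratio averages 5.25 in female CKO and 6.88 in female Ctrl embryos, and 7.79 in male CKO and 8.54 in male Ctrl embryos.

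Females were also compared with males, among Ctrl and among CKO embryos. Among Ctrl embryos, 3 of the 9 members tested were called, all lower in females, where 39.5% of all genes tested were called and 19.4% were called lower. Female and male PGCs take different paths at this stage, since female PGCs approach meiosis while male PGCs enter mitotic arrest. Pmaip1 (ENSMUSG00000024521, chromosome 18) had 1.81, 1.66 and 2.92 CPM in female Ctrl embryos, against 276, 90.4, 174 and 224 CPM in male Ctrl embryos. Even the lowest male library was far above the highest female one. Pmaip1 was about 90-fold lower in females (log2 fold change -6.50, SE 0.42, edgeR adjusted p = 5.77e-07).

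Bax had 149, 165 and 162 CPM in female Ctrl embryos, against 244, 293, 278 and 299 CPM in male Ctrl embryos. It was lower in every female than in any male (log2 fold change -0.81, SE 0.17, edgeR adjusted p = 0.00191). Trp53 had 141, 204 and 199 CPM in female Ctrl embryos, against 224, 367, 335 and 307 CPM in male Ctrl embryos. These groups did not overlap either, which held for 43.4% of all genes tested (log2 fold change -0.76, SE 0.23, edgeR adjusted p = 0.018). The Trp53 call was lost without female Ctrl replicate 1 (-0.61, adjusted p = 0.0878), whereas Pmaip1 and Bax were called in all 16 alternatives.

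Bcl2 leaned the other way, with 0.98, 1.69 and 1.48 CPM in female Ctrl embryos, against 0.64, 0.62, 0.76 and 1.02 CPM in male Ctrl embryos. The groups overlapped at 1 embryo each, and the test was not passed (log2 fold change 0.86, SE 0.33, edgeR adjusted p = 0.0567). It was passed without female Ctrl replicate 1 (1.06, adjusted p = 0.0418) and without male Ctrl replicate 4 (1.03, adjusted p = 0.0395). Bid was at 0.26 (SE 0.15, edgeR adjusted p = 0.185) and was called at 0.43 without male Ctrl replicate 2 (adjusted p = 0.00464), the male with the highest Bid at 94.0 CPM. Bcl2l1, Mcl1, Bbc3 and Bcl2l11 were not called, at log2 fold changes of 0.11, -0.15, 0.33 and -0.01.

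Among CKO embryos, 4 of the 9 members were called, all lower in females, where 38.4% of all genes tested were called and 19% were called lower. Pmaip1 had 2.11 and 2.68 CPM in female CKO against 244, 355 and 361 CPM in male CKO embryos (log2 fold change -7.06, SE 0.52, edgeR adjusted p = 3.1e-06). Bax had 123 and 62.4 CPM in female CKO against 277, 274 and 276 CPM in male CKO embryos (log2 fold change -1.57, SE 0.21, edgeR adjusted p = 8.89e-05). Both genes were far outside the spread of the other sex, and both were called in all 14 alternatives.

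Trp53 had 89.7 and 198 CPM in female CKO against 305, 293 and 299.8 CPM in male CKO embryos (log2 fold change -1.05, SE 0.28, edgeR adjusted p = 0.00961). Without female CKO replicate 1, the lower of the pair, the value was -0.60 and the call was lost (adjusted p = 0.102). Mcl1 had 137 and 138 CPM in female CKO against 180.4, 175 and 182 CPM in male CKO embryos (log2 fold change -0.38, SE 0.10, edgeR adjusted p = 0.00825). With library size only it was -0.20 and the call was lost (adjusted p = 0.0894). Bcl2 was at 0.87 (SE 0.38, edgeR adjusted p = 0.0887), with every female above every male, as held for 64.2% of all genes tested in either direction between these 5 embryos.

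**Figure D4:**
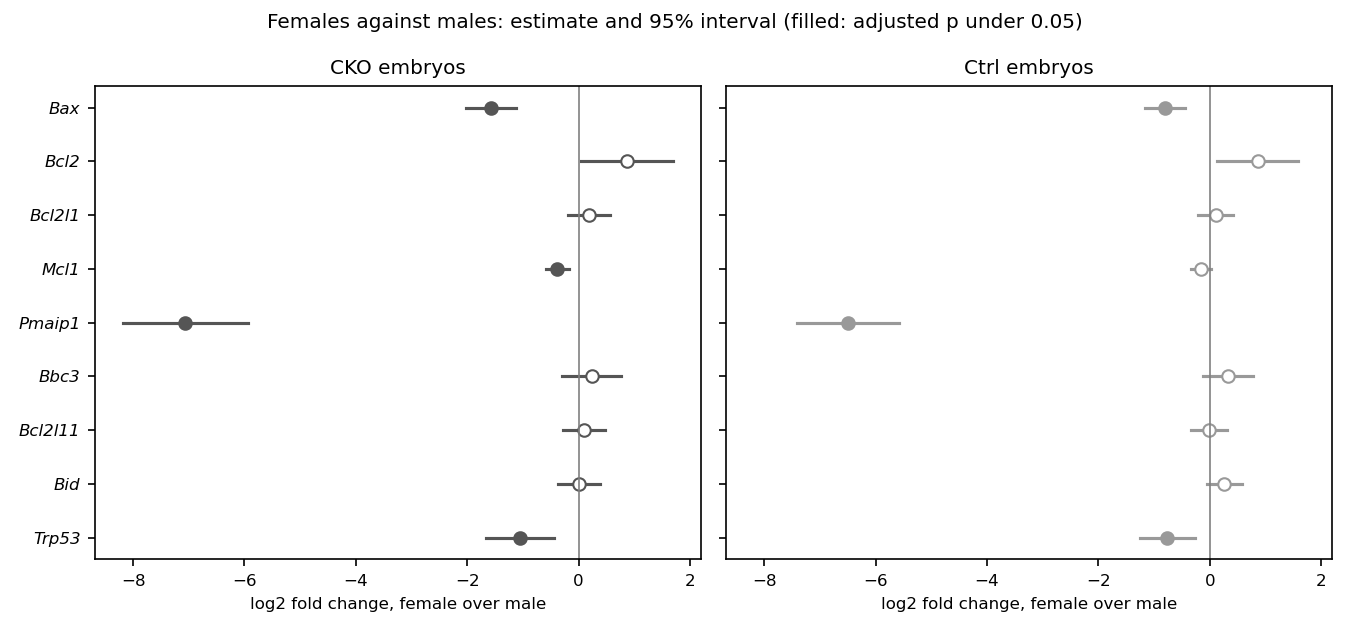
Log2 fold change of female over male embryos for the 9 tested members, CKO embryos on the left and Ctrl embryos on the right, with bars of the 95% interval and filled points where the edgeR adjusted p was under 0.05. Pmaip1 stands apart at -7.06 and -6.50, and the filled points of Bax are at -1.57 and -0.81.

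Somatic markers also differed by sex. The 6 mesonephric epithelium markers summed to 7.05 to 14.1 CPM in female CKO and 9.40 to 23.5 in female Ctrl embryos, and to 90.1 to 103 CPM in male CKO and 95.3 to 113 in male Ctrl embryos. Nearly all of the male sums was Lhx1, at 88.7 to 101 CPM in male CKO and 93.4 to 113 in male Ctrl embryos, while 1 to 2 of the 6 markers in male CKO and 2 to 4 in male Ctrl embryos were at 0. The 8 Sertoli markers summed to 13.0 to 13.9 CPM in female CKO and 11.9 to 15.6 in female Ctrl embryos, and to 15.1 to 33.6 CPM in male CKO and 16.2 to 45.9 in male Ctrl embryos. The defining Sertoli gene Amh was at 0 in all females and at most 5.34 CPM in males. The 6 pregranulosa markers summed to 16.0 to 16.3 CPM in female CKO and 13.7 to 23.9 in female Ctrl embryos, and to 3.08 to 3.72 CPM in male CKO and 2.73 to 4.41 in male Ctrl embryos. The part of somatic RNA in the sex differences was not tested.

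The other genes of the pathway were taken from 4 lists with 91 entries, of which 89 were in the table and 86 were tested. In female CKO against female Ctrl embryos 4 of 86 were called, or 4.65%, where 7.17% of all genes tested were. None of the 12 other BCL2 family genes and none of the 30 p53 target genes was called. Of 19 p53 regulators and relatives 1 rose and 2 fell. Trp63, a p53 relative that guards the genome of oocytes, had 2.37 and 3.25 CPM in female CKO embryos, against 0.338, 0.438 and 0.480 CPM in female Ctrl embryos. The groups were well apart (log2 fold change 2.74, SE 0.39, edgeR adjusted p = 0.00342).

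Trp63 was called in females in all 14 alternatives. In males its level was near that of the female CKO embryos, with 3.62, 2.91 and 3.65 CPM in male CKO against 2.37, 3.30, 3.80 and 1.70 CPM in male Ctrl embryos. The male comparison was not called (log2 fold change 0.28, edgeR adjusted p = 0.705). The difference between the effects was 2.46 (SE 0.50, edgeR adjusted p = 0.294), so it was not shown that the effect differed between the sexes. Among Ctrl embryos Trp63 was lower in females than in males (log2 fold change -2.73, edgeR adjusted p = 6.32e-05).

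The p53 inhibitor Mdm4 had 66.7 and 73.5 CPM in female CKO embryos, against 101, 93.1 and 94.7 CPM in female Ctrl embryos (log2 fold change -0.46, edgeR adjusted p = 0.017). Usp7, a deubiquitinase that acts on MDM2 and p53, had 241 and 269 CPM in female CKO against 348, 345 and 337 CPM in female Ctrl embryos (log2 fold change -0.43, edgeR adjusted p = 0.0231). Both genes were lower in each CKO library than in any Ctrl library. The Mdm4 call was lost without female CKO replicate 1 (adjusted p = 0.127) or 2 (0.0567) and without female Ctrl replicate 1 (0.052) or 3 (0.0504). The Usp7 call was lost without any 1 of the 5 embryos, with adjusted p from 0.0591 to 0.168. Mdm2, the main p53 ubiquitin ligase and itself a p53 target, was not called in any contrast, and its log2 fold change here was -0.27 (edgeR adjusted p = 0.3).

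Of the 25 genes of the caspase cascade 1 was called. Parp1, a DNA repair enzyme that caspases cleave, had 432 and 372 CPM in female CKO embryos, against 778, 713 and 727 CPM in female Ctrl embryos (log2 fold change -0.88, SE 0.16, edgeR adjusted p = 0.00768), a call lost without female CKO replicate 2 (-0.77, adjusted p = 0.0797). Apaf1, the scaffold of the apoptosome, had 19.3 and 25.3 CPM in CKO against 46.4, 40.8 and 39.9 CPM in Ctrl embryos. The groups did not overlap, but the test was not passed (log2 fold change -0.93, SE 0.28, edgeR adjusted p = 0.0654). The initiator Casp9 was at -0.10 (edgeR adjusted p = 0.803).

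In male CKO against male Ctrl embryos none of the 86 genes was called by edgeR, against 1.7% of all genes tested. DESeq2 called 5 of them (5.81%), where it called 5.93% of all genes, and limma-voom called 9 (10.5%), where it called 6.72% of all genes. Mdm4 had 82.3, 78.4 and 75.4 CPM in male CKO against 100.035, 98.2, 102 and 93.8 CPM in male Ctrl embryos, without overlap, as held for 15% of all genes tested (log2 fold change -0.32, edgeR adjusted p = 0.0648). Casp6, an executioner caspase, was at 0.56 (edgeR adjusted p = 0.055). Apaf1 was at -0.54 (edgeR adjusted p = 0.257) and was called at -0.91 without male CKO replicate 1 (0.0462). Cdkn1a, the p53 target that encodes the cell cycle inhibitor p21, was at 0.23 (edgeR adjusted p = 0.496).

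Averaged over the sexes, 12 of the 86 genes were called, or 14%, beside 14.7% of all genes tested. Of the p53 regulators and relatives Trp63 rose by 1.51, while Mdm4 fell by 0.39, Usp7 fell by 0.34, the acetyltransferase gene Kat5 fell by 0.54 and 3 others fell, all on the log2 scale. Parp1 fell by 0.63 and Apaf1 fell by 0.74 (edgeR adjusted p = 0.00218 and 0.0183). Of the 30 p53 target genes 2 rose, Cdkn1a by 0.42 and the polo-like kinase gene Plk2 by 1.02 (edgeR adjusted p = 0.0354 and 0.0386). Bok, a BCL2 family gene related to the effectors, rose by 0.55 (edgeR adjusted p = 0.0361). The median of the 19 p53 regulators was -0.21 and that of the 30 p53 targets 0.02, against -0.01 over all genes tested.

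Of these calls those of Mdm4, Kat5 and Parp1 held in all 20 alternatives and that of Apaf1 in 19, whereas Cdkn1a was called in 13, Bok in 10 and Plk2 in 10. Apaf1 lost its call without female CKO replicate 1 (adjusted p = 0.0921), and Cdkn1a without female CKO replicate 2, female Ctrl replicate 3, male CKO replicate 2 or 3, or male Ctrl replicate 3 (0.0525 to 0.189). Bok lost it without any of 7 embryos (0.0557 to 0.188) and Plk2 without any of 8 (0.0587 to 0.184). Cdkn1a had 50.3 and 70.6 CPM in female CKO against 45.4, 42.9 and 31.3 CPM in female Ctrl embryos. In males it had 40.9, 41.9 and 54.0 CPM in CKO against 38.3, 41.5, 35.6 and 39.7 CPM in Ctrl embryos. The female groups were apart and the male groups overlapped. Neither comparison within a sex was called, at 0.60 in females (edgeR adjusted p = 0.0668) and 0.23 in males (0.496).

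**Figure D5:**
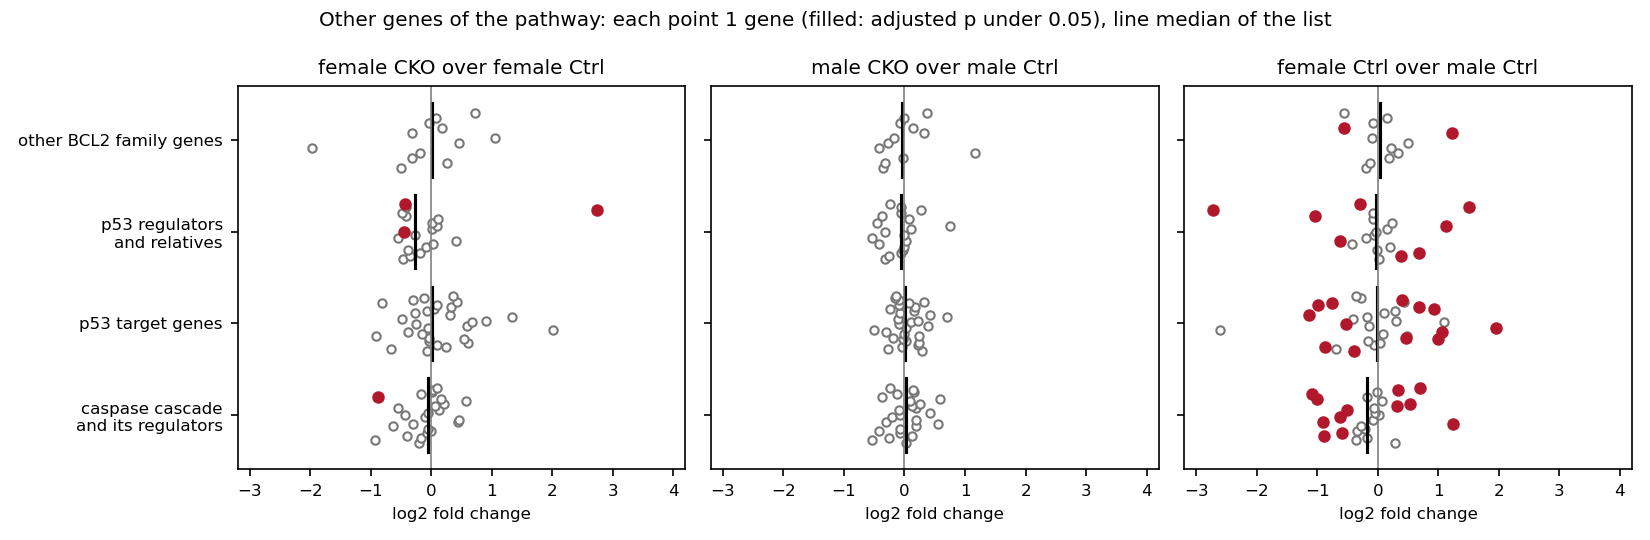
Log2 fold change of the 86 tested genes of the 4 pathway lists, 1 point per gene and a line at the list median, in female CKO over female Ctrl, male CKO over male Ctrl and female Ctrl over male Ctrl embryos. Filled points mark an edgeR adjusted p under 0.05, of which there are 4, 0 and 35.

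Between the sexes the pathway lists were called about as often as other genes, with 35 of 86 among Ctrl embryos (40.7%, beside 39.5% of all genes) and 34 of 86 among CKO embryos (39.5%, beside 38.4%). Among Ctrl embryos 17 of the 35 were higher in females and 18 lower. The BH3-only gene Bmf had 35.9, 33.3 and 29.4 CPM in female Ctrl against 15.1, 13.0, 10.7 and 17.5 CPM in male Ctrl embryos. It was higher in every female than in any male (log2 fold change 1.22, SE 0.16, edgeR adjusted p = 6.67e-05), opposite in direction to Pmaip1. Bmf was also higher in females among CKO embryos (0.59, edgeR adjusted p = 0.0266), a call lost without either female CKO embryo or male CKO replicate 1 or 2 (0.0538 to 0.139).

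Of the p53 regulators and relatives, Trp53bp1, a DNA damage response protein gene, had 115, 99.9 and 98.9 CPM in female Ctrl against 256, 190.0, 211 and 202 CPM in male Ctrl embryos. It was lower in females (log2 fold change -1.04, SE 0.15, edgeR adjusted p = 0.000174), although 15% of its exon bases overlap other genes. Ppp1r13b, the gene of the p53-binding protein ASPP1, had 66.5, 56.8 and 41.5 CPM in female Ctrl against 30.3, 25.6, 23.5 and 21.4 CPM in male Ctrl embryos. It was higher in females (log2 fold change 1.12, SE 0.19, edgeR adjusted p = 0.00048), with no overlap.

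Of the 30 p53 targets, 7 were called higher and 6 lower in female than in male Ctrl embryos. That was 43.3% of the list, beside 39.5% of all genes tested, which also split, with 3358 higher and 3246 lower. Gadd45a, a stress-induced growth arrest gene, was higher at 1.96, Ercc5, a nucleotide excision repair nuclease gene, at 1.06, and Rrm2b, a ribonucleotide reductase subunit gene, at 0.92. Sesn2, a stress-induced regulator of metabolism, was lower at -0.99 (edgeR adjusted p between 2.13e-05 and 0.00124 for these 4 genes). Sesn2 had 77.2, 59.2 and 62.2 CPM in female Ctrl against 121, 145, 134 and 125 CPM in male Ctrl embryos, with no overlap. Among CKO embryos Tigar, a p53-induced metabolic regulator, was lower in females at -1.63 and the DNA damage sensor gene Ddb2 was higher at 1.56 (edgeR adjusted p = 0.000555 and 0.000676).

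Of the 25 genes of the caspase cascade, 12 were called among Ctrl embryos, 5 higher and 7 lower in females. That was 48%, beside 39.5% of all genes tested. Casp6 had 80.4, 72.9 and 82.4 CPM in female Ctrl against 26.6, 38.4, 38.7 and 28.8 CPM in male Ctrl embryos (log2 fold change 1.25, SE 0.13, edgeR adjusted p = 1.37e-05). The initiator Casp9 was lower in females at -0.62 (edgeR adjusted p = 0.00648). Birc3 and Htra2, a caspase inhibitor gene and the gene of a mitochondrial protease, were lower in female than in male CKO embryos, at -1.41 and -1.42.

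The 3 genes whose profile over the 12 libraries lay nearest to that of Bax, among 10241 genes with a mean of at least 5 CPM, were Hnrnpa1, Nop2 and Shc1. Their distances were 0.69, 0.72 and 0.73 log2 units over the 12 libraries, after centring each gene on its mean. Hnrnpa1, an RNA-binding protein gene, averaged 209 CPM in female CKO, 358 in female Ctrl, 579 in male CKO and 581 in male Ctrl embryos, in the same order of groups as Bax. The libraries share scaling and fall into 2 sexes, so this is a description of the profile alone.

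Shared sequence limits some of these counts. Of the exon bases of Bid 17.7% are shared with Bcl2l13 on the opposite strand, which had 1245 to 2371 counts per library, and of those of Bax 12.2% with Gm45808 on the same strand. Bcl2 shares 6.09% of its exon bases with D630008O14Rik on the opposite strand, which had at most 3 counts in any library. Trp53 matches the pseudogene Trp53-ps over 353 bases at 97.7% identity, and that pseudogene had at most 1 count per library. The exons of Mcl1, Pmaip1, Bcl2l1, Bbc3 and Bcl2l11 overlapped no other annotated gene. Of the pathway genes named above, Htra2 shares 43.7% of its exon bases with Aup1 and Loxl3. Ddb2 shares 23.8% with Acp2, and Gadd45a 19.1% with E230016M11Rik, all on the opposite strand. As the reads carry no strand, some counts of these pathway genes could belong to their neighbours.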

How the data were processed

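RNA-seq of sorted PGCs was analysed from the read counts per gene for 12 libraries that the authors deposited, used as deposited. Per the labels' protocols, cDNA was amplified from 1 ng of RNA by SMART-seq V4 and made into NEBNext Ultra II libraries, which do not mark strand. Tools named in the submitters' processing notes are featureCounts, TopHat2 2.0.11, Trimmomatic 0.33 and CASAVA 1.8.4, with the builds mm9 and NCBIM37, and how reads matching several places were counted is not given in the sources used here. Of 37991 identifiers 32919 matched a symbol in GENCODE M21, whose exon lengths on GRCm38 gave CPM per kb, and those symbols covered 99.5% of counts. Promoter sequences are RefSeq's on GRCm38.p6, taken for 9 of the 10 members, with Pmaip1 on chromosome 18 left out.

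Genes were filtered with edgeR's filterByExpr (minimum count 10, minimum total 15), leaving 16708. Libraries were scaled by TMM (factors 0.926 to 1.108). edgeR 4.0.16 (limma 3.58.1, R 4.3.3) fitted a robust quasi-likelihood model with 1 coefficient per group and 8 residual degrees of freedom. P-values were Benjamini-Hochberg adjusted over all genes tested, and SE came from the F statistic. The 6 contrasts were CKO against Ctrl within each sex, their average and difference, and females against males among Ctrl and among CKO embryos. CPM were computed on TMM-scaled sizes, intervals are 95%, and amplified reads are not independent molecules. Same-group libraries differed by more than counting noise (chi-square per gene 16.8 to 66.2), and every embryo counted as 1 replicate.

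Alternatives were median-of-ratios scaling, library size only, no filter, at least 5 CPM in at least 2 libraries, a fit to the compared groups alone, a replicate block, limma-voom, DESeq2 1.42.0, a call rule of at least 2-fold, and each library left out. Members and lists were chosen with earlier results of these data known. Named were the 10 members, Ezh2, Mdm2, Cdkn1a, Casp9, Apaf1, up to 4 called genes per list and contrast with the smallest adjusted p, and the 3 genes nearest Bax in profile; these and further contrasts of the same genes are given, and some named genes are not reported here.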

Additional observations from a re-analysis of the deposited data

Results flagged for a closer look

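The rule for a library far from the rest of its group needs at least 4 libraries, so only male Ctrl embryos were examined. Of 41 genes examined there, 1 met the rule, and chance flags about 1 in 20 groups. Female CKO, female Ctrl and male CKO embryos, with 2, 3 and 3 libraries, were not examined by this rule. Chek1, a checkpoint kinase gene among the p53 regulators, had 94.6 CPM in male Ctrl replicate 1, while the other 3 male Ctrl libraries had between 125 and 131 CPM. Chek1 was higher in female than in male Ctrl embryos in all 16 alternatives (log2 fold change 0.68, edgeR adjusted p = 0.000279). Male Ctrl replicate 1 also had the highest sum of Sertoli markers, at 45.9 CPM, and their part in the Chek1 value was not tested.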

How the results depend on the processing

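No called value reversed under the alternatives run. The share of all genes called also moved with the setting. Averaged over the sexes it was 14.7%, 21% with limma-voom and 19.1% with DESeq2. In females it was 7.17%, 6.04% with library size only and 4.26% without a filter. For males it was 1.7%, and 6.72% with limma-voom. Between the sexes it was 39.5% among Ctrl and 38.4% among CKO embryos, and 45.8% and 43.3% with limma-voom. The members called, main count first, were as follows. In females CKO against Ctrl gave 2, with 1 under median-of-ratios scaling, the 5 CPM filter and the label-number replicate block, 0 under library size only, no filter, only the groups compared, the title-number replicate block and the 2-fold rule, and 0 to 1 with a library left out. In males it gave 0, 1 with limma-voom and 0 to 0 with a library left out. Averaged over the sexes it gave 1, 0 without a filter and under the 2-fold rule, 2 with limma-voom, 3 with DESeq2 and 0 to 2 with a library left out. The difference of effects gave 0, and 0 to 1 with a library left out. Female against male Ctrl gave 3, 1 under the 2-fold rule, 5 with library size only and with limma-voom, and 3 to 4 with a library left out, and female against male CKO gave 4, with 3 under the 2-fold rule and without a filter, 5 with limma-voom, 4 with library size only, of which 1 was higher, and 3 to 4 with a library left out.

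The pathway genes called in female CKO against Ctrl were 4, with 1 under the 2-fold rule, 10 with only the groups compared, 11 with limma-voom, 14 with DESeq2 and 1 to 3 with a library left out. The share called was 11.8% of the list against 10.8% of all genes with only the groups compared, 12.8% against 12.4% with limma-voom and 16.3% against 11.9% with DESeq2. In males they were 0, with 1 under median-of-ratios and under the label-number block, 2 under library size only and the 5 CPM filter, 3 without a filter, 9 with limma-voom, 5 with DESeq2 and 0 to 3 with a library left out. Averaged they were 12, with 2 under the 2-fold rule and 6 to 15. For the difference they were 0, with 1 by DESeq2 and 0 to 0. Between the sexes they were 35 among Ctrl embryos, with 10 under the 2-fold rule and 31 to 39, and 34 among CKO embryos, with 14 and 21 to 28. The causes were not tested.

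Equal replicate numbers did not go with alike profiles. Over 5 pairs of equal title number the deviations correlated between -0.03 and 0.08, and 0 pairs exceeded 0.1. With only 2 female CKO embryos, their deviations from the group mean mirror each other, so the female pairs are not independent. The labels give no litters, and weak correlations cannot show that no embryos shared one. With the title-number replicate block Bax in females was -0.79 (adjusted p = 0.063). With library size only, the median of all genes shifted to 0.11 in female CKO against Ctrl, 0.10 and 0.21 in the sex contrasts, and the calls were 652 higher and 357 lower, against 503 and 695 with TMM. Over the sexes averaged that split was 1505 and 782 against 1145 and 1315, among Ctrl sexes 4062 and 2592 against 3358 and 3246, and among CKO sexes 4336 and 2212 against 3239 and 3172. Bax in females was then -0.66 and no longer called (adjusted p = 0.0667). With 2 female CKO embryos, and with Bcl2 and Bak1 at under 100 counts, small differences could not be shown.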
